A study of Mus musculus with 9 samples.

Results

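The erythroid transcripts with Car1 are 8 genes that developing red blood cells express: Car1, Car2, Rhag, Klf1, Epor, Alas2, Ermap and Hemgn. They were chosen by name, with earlier results of these arrays known, as possible red-cell RNA carried over into a sort of marrow stromal cells. Each is represented by 1 probe set, so the set is 8 of the 19938 genes and 8 of the 21789 probe sets that the platform pairs with 1 symbol. The sorted cells were CXCL12-abundant reticular (CAR) cells, the perivascular stromal cells of the bone marrow that make the chemokine CXCL12. All arrays came from Cxcl12+/gfp mice, which carry a GFP reporter at 1 Cxcl12 allele. One group of 5 arrays came from mice treated with G-CSF, the granulocyte colony-stimulating factor, which mobilises blood cells out of the marrow, at 250 µg/kg/d for 5 days. The other group, with 4 arrays, came from mice that received phosphate-buffered saline (PBS) alone over those 5 days. GFP-bright cells free of lineage markers went from the sorter into TRIzol LS, and their RNA was amplified and hybridised to Mouse Gene 1.0 ST arrays. The labels give neither the age of the mice nor the animals or pools behind each replicate, so the p-values reflect array-to-array spread, which may be technical.

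The labels contain a conflict. Every source name speaks of pre-B colonies, and those of G-CSF replicates 2 to 5 also name an Hspa9 genotype. Titles, genotype fields and protocols describe CAR cells throughout, and the groups here follow the titles. Of 10 listed CAR cell genes, 5 fell, as given below (log2 means ± SD, n = 5 and 4). Cxcl12 averaged 11.99 ± 0.07 in G-CSF arrays and 12.35 ± 0.11 in PBS arrays. Lepr, a receptor gene that marks these stromal cells, averaged 11.33 ± 0.26 in G-CSF arrays and 11.55 ± 0.21 in PBS arrays. Neutrophil RNA was high as well, so these levels do not show how pure the sort was. The neutrophil gene S100a8 averaged 12.51 ± 0.31 in G-CSF arrays and 11.66 ± 0.72 in PBS arrays. Over 16 neutrophil genes the mean was 8.99 in G-CSF arrays and 8.04 in PBS arrays. Over the 10 CAR cell genes it was 9.84 and 10.58. Array medians ranged from 34.72 to 37.24 on the deposited linear scale. The leading principal component held 34.9% of the variance and parted the arrays into a set of G-CSF 1 to 3 with PBS 1 and 2, and a set of G-CSF 4 and 5 with PBS 3 and 4. PBS 3 stood farthest out on it, at 56.5, and the next farthest was PBS 1 at -30.3. PBS 3 also had the narrowest interquartile range of log2 values, 2.45, and PBS 1 the widest, 2.99. Both sets hold both treatments, and the labels do not say what they are. G-CSF 4 and 5 were the closest pair of arrays, with an SD of 0.28 for their difference. The next closest were PBS 1 and 2, at 0.37. Whether G-CSF 4 and 5 came from separate mice is not given, and the main fit counts them as separate.

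Red blood cells arise in the marrow from progenitors that need erythropoietin, which signals through the receptor encoded by Epor. The transcription factor GATA1 and its partner Klf1 then switch on the genes for haemoglobin, for haem synthesis (Alas2) and for the red-cell membrane and cytoplasm (Rhag, Ermap, Car1, Car2). Erythroblasts mature around macrophages beside the stroma and carry these transcripts at high levels, so erythroid RNA is a known passenger in preparations of marrow cells. Car2 and Epor are also expressed outside the red-cell lineage.

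The regulatory letters that link the genes are shown first, because binding sites for GATA factors are a known shared feature of erythroid promoters. RefSeq promoters of build GRCm38.p6, from 250 bases before to 50 bases after the annotated start, matched 6 of the 8 genes. Car1 and Car2 were not matched. The motif searched was GATA with A or T before it and A or G after it, on both strands. Each line gives 30 bases on either side of the match where the window allows, 5′ to 3′ on the strand of the gene, with the GATA motif in capitals.
Rhag, chr17:40811088-40811153, plus strand: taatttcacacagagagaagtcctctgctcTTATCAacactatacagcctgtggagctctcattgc
Klf1, chr8:84901872-84901937, plus strand: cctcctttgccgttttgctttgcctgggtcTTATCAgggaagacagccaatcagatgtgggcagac
Epor, chr9:21963595-21963660, minus strand: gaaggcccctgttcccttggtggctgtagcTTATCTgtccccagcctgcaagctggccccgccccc
Alas2, chrX:150547301-150547366, plus strand: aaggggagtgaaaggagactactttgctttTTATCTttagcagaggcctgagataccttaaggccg
Ermap, chr4:119190027-119190092, minus strand: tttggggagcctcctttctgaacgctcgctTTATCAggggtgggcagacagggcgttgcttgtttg
Hemgn, chr4:46404134-46404226, minus strand: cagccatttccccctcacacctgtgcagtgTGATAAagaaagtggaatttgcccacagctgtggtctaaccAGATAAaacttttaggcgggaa

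All 6 matched promoters hold a GATA motif, against 29.8% of the 32851 mouse promoters of the same length. Counted from the start site, the motif begins at base -31 in Rhag, -54 in Epor, -67 in Ermap, -80 in Klf1 and -86 in Alas2. Hemgn has 2 motifs, at bases -13 and 29. In 5 of the 6 genes the motif reads on the opposite strand, as TTATCA or TTATCT, and in Hemgn it reads forward. The Klf1-type motif CCNCACCC is in 2 of the 6 promoters, those of Epor and Alas2, against 16.6% of all. The broader CCNCNCCC, which includes it, is in 3 of the 6 (Epor, Alas2 and Hemgn), against 49.5% of all. These are letter matches and say nothing of occupancy in the sorted cells.

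Car1, a carbonic anhydrase of red cells, fell by 3.57 log2 units and Rhag, a red-cell membrane protein, fell by 1.25 log2 units in G-CSF arrays, and the other 6 transcripts did not pass the test. All 8 had a lower mean in G-CSF arrays, against 48.7% of all tested probe sets. Fits were made with limma over all 21789 probe sets, and a transcript was called at a Benjamini-Hochberg adjusted p under 0.05. By that rule 2 of 8 transcripts (25%) fell and 0 rose, while 0.877% of all probe sets fell, 0.743% rose and 1.62% changed in either direction. With any 1 array left out, the count that fell was 0 to 2, and without PBS 3, the array that stood farthest out, it was 1. In 3 of 8, every G-CSF array lay below every PBS array, against 2.46% of all probe sets, and in 0 of 8 above, against 2.18%. At an unadjusted p under 0.05, 5 of 8 were lower, against 4.81%, and 0 were higher. The median change over the 8 was -0.49 on the log2 scale, against 0.01 over all probe sets. In sorted bulk cells, fewer contributing cells and less RNA per cell cannot be told apart, and values are relative to the rest of each array's RNA.

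**Figure D1:**
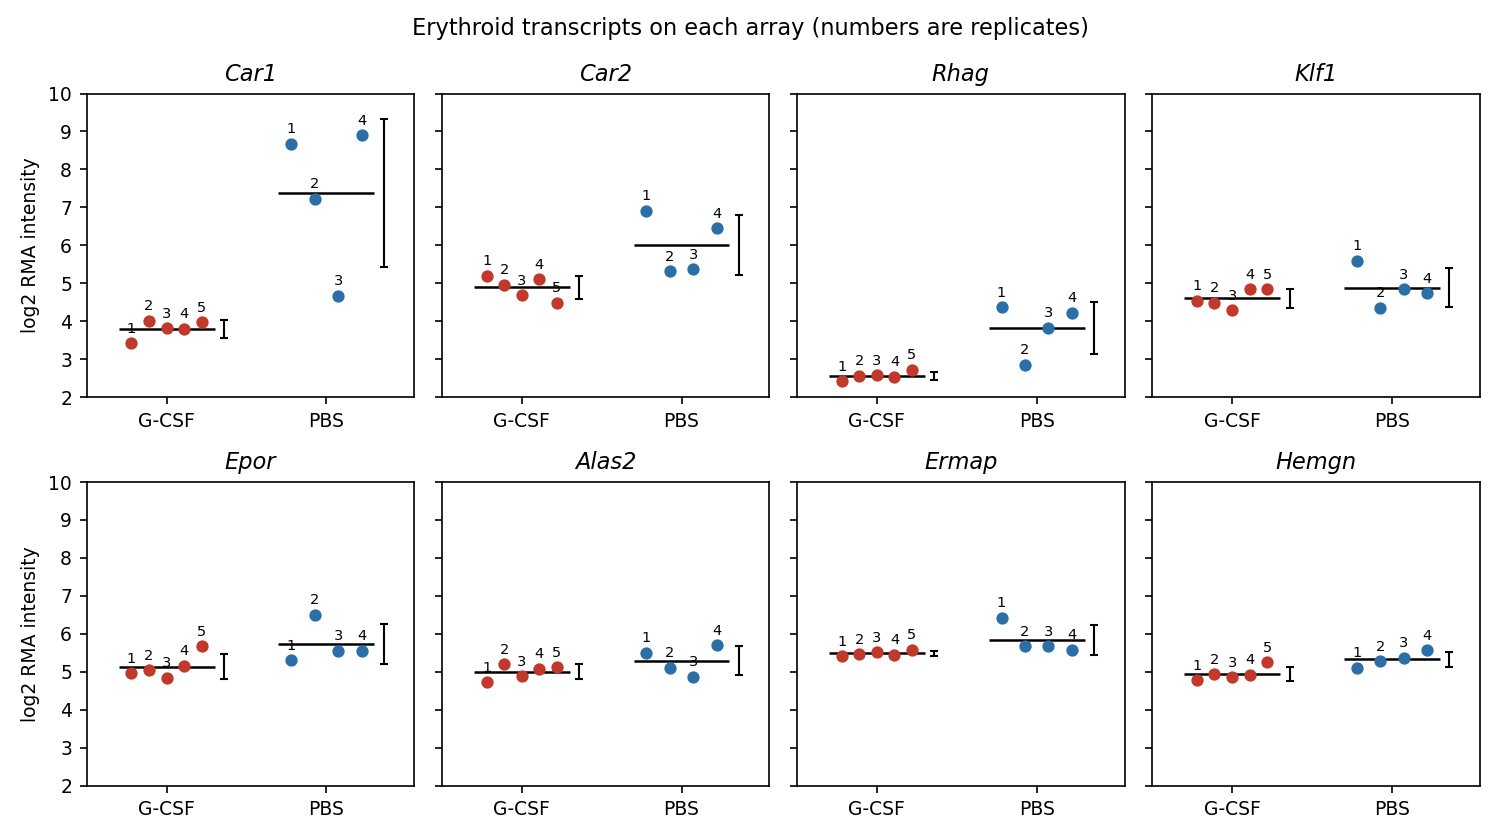
Log2 of the deposited RMA intensity (vertical axis) of the 8 erythroid transcripts, with 1 numbered point per array, G-CSF left of PBS, horizontal lines for the group means and bars for ± 1 SD. Car1 in PBS arrays spreads between 4.67 and 8.90, whereas its 5 G-CSF arrays lie between 3.41 and 4.01.

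Car1 and Car2 encode cytosolic carbonic anhydrases, the enzymes that interconvert carbon dioxide and bicarbonate. Car1, abundant in mature erythroid cells, had log2 values of 3.41, 4.01, 3.81, 3.80 and 3.98 in G-CSF replicates 1 to 5, against 8.68, 7.23, 4.67 and 8.90 in PBS replicates 1 to 4. The G-CSF arrays lay close together, and 3 of the PBS arrays stood far above them while PBS 3 was only 0.66 above the highest G-CSF array. On the deposited linear scale this was 10.66 to 16.1 in G-CSF arrays and 25.47 to 477.97 in PBS arrays. Means were 3.80 ± 0.24 in G-CSF arrays and 7.37 ± 1.95 in PBS arrays (SD, n = 5 and 4). Car1 fell by 3.57 on the log2 scale (SE 0.66, 95% interval -5.01 to -2.12), which is 11.8-fold lower, at an adjusted p of 0.0176. The table has no detection call, so whether the G-CSF level of Car1 was above background is not known, and the fold depends on that level. None of the other probe sets with 1 symbol had a more negative change on that scale (0 of 21789). The adult globin probe sets, which have several symbols, lie outside that count. Their changes, given below, were -3.66 and -3.56 for alpha-globin and -4.19 and -4.11 for beta-globin.

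The level of Car1 in the PBS arrays was uneven. The SD of 1.95 among PBS arrays was exceeded by 5 of the 21789 probe sets (0.0229%). Without PBS 1 the change was -3.13 with an adjusted p of 0.0617, and without PBS 4 it was -3.05 with an adjusted p of 0.0535. Without G-CSF 1 it was -3.47 with an adjusted p of 0.0528, and without PBS 3 it was -4.46 with an adjusted p of 8.15e-05. Within the first array set Car1 was lower by 4.21 log2 units (a change of -4.21, adjusted p = 0.00437). Within the second set, which holds PBS 3 and 4, the change was -2.89 with an adjusted p of 0.518.

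Car2, which is also made by osteoclasts and other cells, had 5.20, 4.97, 4.69, 5.11 and 4.49 in G-CSF replicates 1 to 5, against 6.92, 5.31, 5.37 and 6.45 in PBS replicates 1 to 4. The groups did not overlap, but only by 0.12, and PBS 1 and 4 were again the high arrays. Means were 4.89 ± 0.29 in G-CSF arrays and 6.01 ± 0.80 in PBS arrays. The change was -1.12 (SE 0.31, 95% interval -1.80 to -0.45) with an adjusted p of 0.127, so it missed the threshold. It was -1.16 within the first array set and -1.11 within the second.

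Rhag and Ermap encode red-cell surface proteins. Rhag, the Rh-associated glycoprotein that the Rh complex needs to reach the membrane, had 2.43, 2.56, 2.58, 2.54 and 2.72 in G-CSF replicates 1 to 5, against 4.37, 2.86, 3.83 and 4.23 in PBS replicates 1 to 4. All G-CSF arrays lay below all PBS arrays, with PBS 2 only 0.14 above the highest of them. Means were 2.57 ± 0.11 in G-CSF arrays and 3.82 ± 0.68 in PBS arrays. Rhag fell by 1.25 on the log2 scale (SE 0.26, 95% interval -1.82 to -0.69), or 2.39-fold, at an adjusted p of 0.0312. The same limit on the G-CSF level holds for Rhag, and it extends to the PBS level. On the linear scale Rhag was 5.38 to 6.6 in G-CSF arrays and 7.25 to 20.73 in PBS arrays. All of these are below the array medians of 34.72 to 37.24. Other members were low in G-CSF arrays as well, at 19.48 to 28.86 for Klf1 and 22.5 to 36.65 for Car2. Alas2 was at 26.54 to 36.8 and Hemgn at 27.47 to 38.07. For these too, a small change at a low level does not show that no fall took place. With any 1 array left out, the change of Rhag stayed between -1.58 and -1.07, but it passed the threshold only without PBS 2 (adjusted p = 0.000981), and the other 8 such fits gave adjusted p values of 0.0595 to 0.101. Within the array sets it was -1.09 (adjusted p = 0.329) and -1.40 (adjusted p = 0.0780).

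Ermap, the erythroid membrane-associated protein that carries the Scianna blood group in human, had 5.41, 5.46, 5.52, 5.45 and 5.59 in G-CSF replicates 1 to 5, against 6.42, 5.68, 5.67 and 5.58 in PBS replicates 1 to 4. PBS 1 stood alone above the rest, and the lowest PBS array was just below the highest G-CSF array. Means were 5.49 ± 0.07 in G-CSF arrays and 5.84 ± 0.39 in PBS arrays, with a change of -0.35 (SE 0.18, adjusted p = 0.619).

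Epor, Klf1 and Hemgn belong to the control of the lineage. Epor had 4.97, 5.04, 4.85, 5.16 and 5.68 in G-CSF replicates 1 to 5, against 5.31, 6.50, 5.55 and 5.56 in PBS replicates 1 to 4. Of the G-CSF arrays 4 of 5 lay below the lowest PBS array, and G-CSF 5 lay among the PBS arrays. Its highest array was PBS 2, not PBS 1 or 4. Means were 5.14 ± 0.32 in G-CSF arrays and 5.73 ± 0.53 in PBS arrays, a change of -0.59 (SE 0.24, 95% interval -1.12 to -0.06, adjusted p = 0.444).

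Klf1, the zinc-finger factor that activates adult beta-globin, had 4.54, 4.48, 4.28, 4.85 and 4.84 in G-CSF replicates 1 to 5, against 5.59, 4.36, 4.84 and 4.74 in PBS replicates 1 to 4. Only PBS 1 stood above the G-CSF arrays. Means were 4.60 ± 0.24 in G-CSF arrays and 4.88 ± 0.52 in PBS arrays, with a change of -0.28 (SE 0.23, 95% interval -0.78 to 0.21, adjusted p = 0.858). Within the second array set its sign turned, to 0.054.

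Hemgn, a nuclear protein of erythroid and progenitor cells, had 4.78, 4.94, 4.85, 4.92 and 5.25 in G-CSF replicates 1 to 5, against 5.11, 5.27, 5.37 and 5.57 in PBS replicates 1 to 4. G-CSF 5 was the only G-CSF array above the lowest PBS array. Means were 4.95 ± 0.18 in G-CSF arrays and 5.33 ± 0.19 in PBS arrays, a change of -0.38 (SE 0.15, adjusted p = 0.394).

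Alas2, the erythroid enzyme of the first step of haem synthesis, had 4.73, 5.20, 4.88, 5.08 and 5.12 in G-CSF replicates 1 to 5, against 5.50, 5.10, 4.87 and 5.71 in PBS replicates 1 to 4. PBS 1 and 4 stood above all G-CSF arrays, and PBS 2 and 3 lay among them. Means were 5.00 ± 0.19 in G-CSF arrays and 5.29 ± 0.38 in PBS arrays, a change of -0.29 (SE 0.19, 95% interval -0.70 to 0.12, adjusted p = 0.777).

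The excess in PBS arrays was not shared evenly among the transcripts. Counted from each transcript's own G-CSF mean, Car1 was higher by 4.87, 3.42, 0.87 and 5.10 log2 units in PBS replicates 1 to 4. Car2 was higher by 2.02, 0.42, 0.48 and 1.56, and Rhag by 1.81, 0.29, 1.26 and 1.66. PBS 1 and 4 were high for all 3 genes, whereas PBS 2 was high for Car1 but not for Rhag, and PBS 3 was high for Rhag but little raised for Car1. The highest PBS array was replicate 1 for 4 transcripts, replicate 4 for 3 and replicate 2 for 1. Replicates 1 and 4 thus held the highest value for 7 of 8 transcripts, against 44.7% of all probe sets. This pair was picked from the same values, so the choice favours a count above that share. PBS 3 was highest for 37.7% of all probe sets and for 0 of the 8 transcripts. An excess of at least 1 was found for 3, 2, 1 and 3 of the 8 transcripts in PBS replicates 1 to 4, against 1.69%, 1.68%, 1.89% and 1.06% of all probe sets.

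The change of Car1 minus that of each other transcript ran from -3.28 (Klf1) to -2.31 (Rhag) log2 units, a difference between changes that was not tested. Across the 9 arrays, Pearson's r with Car1 was 0.87 for Car2, 0.82 for Rhag and 0.82 for Alas2. It was 0.67 for Ermap, 0.66 for Hemgn, 0.49 for Epor and 0.46 for Klf1. The 9 arrays include both treatments, so the correlations mix the difference between groups with the spread within them, and they are given as a description with no test.

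To find the probe sets most like Car1 over the 9 arrays, those with an SD of at least 0.5 were compared, which left 2286. Of the 7 other members 3 were among them (Car2, Rhag and Epor), and 4 were not, Alas2 with its SD of 0.31 included. Of the 50 other erythroid genes 7 were compared, and the globin probe sets with several symbols were not. Car2 ranked 37, Rhag 90 and Epor 373, so 2 of the 3 members and 1 of the 7 other erythroid genes stood in the top 100, which is 4.37% of the probe sets compared.

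The 10 highest correlations were those of Edar (0.975), Plxnc1, Pdzrn4, Abat, Emc2, Slco1a4, Fzd1, Fzd4, Eepd1 and Bmp6 (0.925). Edar, a receptor of the tumour necrosis factor family known from skin appendages, had 5.72, 5.71, 5.53, 5.86 and 6.15 in G-CSF arrays, against 7.25, 6.94, 6.06 and 7.37 in PBS arrays. As for Car1, PBS 3 was its lowest PBS array, which the choice by likeness favours. With the group means removed, the 10 probe sets most like Car1 belonged to Nqo1 (0.935), Sgcb, Sarnp (2 probe sets), Mboat2, Virma, Edar, Nifk, Pcdhb3 and Riok3 (0.890). PBS 3 was the lowest of the 9 arrays in 9 of these 10 probe sets, against 17.2% of all probe sets. It was also the lowest PBS array for Car1, so the choice by likeness favours that count. PBS 3 was the array farthest out on the leading principal component, and its part in the likeness was not tested. Of the members, Alas2 had the highest correlation of deviations with Car1, at 0.87.

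Car1 and Car2 are neighbours, in the order Car13, Car1, Car3 and Car2 of protein-coding genes on chromosome 3 in the RefSeq table. Car13 changed by -0.32 (adjusted p = 0.913) and Car3, a muscle and fat carbonic anhydrase, by -0.80 (adjusted p = 0.173). Over the 14 other carbonic anhydrases measured, 0 fell and 0 rose (2 were lower and 1 higher at an unadjusted p under 0.05), with a median change of -0.09. The lowest p values among them were those of Car3 and of Car8, at 0.53 (adjusted p = 0.260).

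Adult globin is the most abundant product of erythroid cells, and its probe sets on these arrays are each paired with several symbols. There are 2 for alpha-globin, with 2 symbols each, and 2 for beta-globin, with 4 symbols each, so no single gene is named. They were examined after the members, in a fit over all 35553 probe sets, of which 0.264% fell. The first alpha-globin probe set had 6.61, 6.21, 4.48, 5.71 and 6.02 in G-CSF arrays, against 9.75, 9.92, 8.91 and 9.29 in PBS arrays. The first beta-globin probe set had 6.21, 5.78, 4.59, 5.54 and 5.79 in G-CSF arrays, against 10.13, 10.27, 9.35 and 9.34 in PBS arrays. The groups were far apart, with at least 2.30 log2 units between the lowest PBS and the highest G-CSF array in all 4 probe sets.

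All 4 globin probe sets fell. The alpha-globin changes were -3.66 (SE 0.40, adjusted p = 0.00374) and -3.56 (SE 0.37, adjusted p = 0.00303), or 12.7-fold and 11.8-fold lower. The beta-globin changes were -4.19 (SE 0.33, adjusted p = 0.000574) and -4.11 (SE 0.32, adjusted p = 0.000531), or 18.2-fold and 17.3-fold lower. The SD among PBS arrays was 0.45 to 0.50, against 1.95 for Car1, and PBS 3 did not drop to near the G-CSF arrays as it did for Car1. Each of the 4 passed the threshold with any 1 array left out, with changes of -4.35 to -3.26. Within the array sets they were -4.67 to -3.98 and -3.68 to -3.11, with 0 of 4 passing in either set alone. In the fit over all 35553 probe sets, Car1 had an adjusted p of 0.0894.

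**Figure D2:**
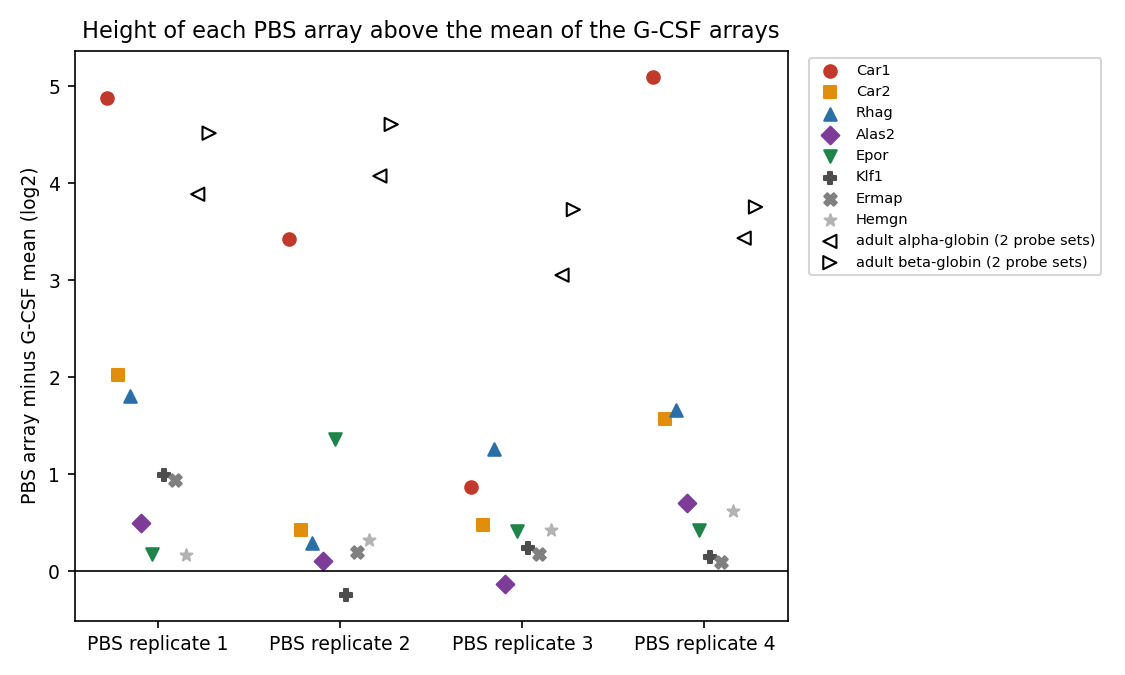
Log2 level in each PBS array minus the mean over the 5 G-CSF arrays, for the 8 transcripts (filled) and for the alpha- and beta-globin probe sets (open triangles, mean of 2 probe sets each). Car1 is high in PBS 1, 2 and 4 (4.87, 3.42 and 5.10) and little raised in PBS 3 (0.87). Epor peaks in PBS 2 (1.36), and the globins are high in all 4 arrays.

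Of 62 other erythroid genes listed, 50 were measured by a probe set with 1 symbol. Of these 1 fell, 1 rose and 48 did not pass, where 0.877% of all probe sets fell and 0.743% rose. At an unadjusted p under 0.05, 5 of 50 were lower, against 4.81% of all probe sets, and 1 was higher. The median change was -0.08, with 33 of 50 below 0, against 48.7% of all probe sets. In 2 of the 50 (4%) all G-CSF arrays lay below all PBS arrays, against 2.46% of all probe sets. No detection call exists for these genes either. The list mean was 5.26 to 5.39 in G-CSF arrays and 5.30 to 5.58 in PBS arrays, whereas that of the 8 transcripts was 4.43 to 4.71 in G-CSF arrays and 5.02 to 5.99 in PBS arrays.

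The gene that fell was Tfrc, the transferrin receptor that brings iron into erythroblasts and into dividing cells. It had 5.09, 4.78, 4.90, 4.61 and 4.80 in G-CSF arrays, against 5.70, 5.54, 5.26 and 6.0 in PBS arrays, with no overlap. Tfrc fell by 0.79 on the log2 scale (SE 0.17, adjusted p = 0.0395). Its highest array was PBS 4, followed by PBS 1 and PBS 2, which lay close together. The gene that rose was Cbfa2t3, a corepressor of GATA1 and TAL1 complexes, at 7.22 ± 0.37 in G-CSF arrays and 6.22 ± 0.29 in PBS arrays. Cbfa2t3 rose by 1.01 (SE 0.21, adjusted p = 0.0312), whereas its other probe set changed by 0.09 (adjusted p = 0.977). The count of the 50 genes that fell was 1 without PBS 3 and 0 without any other single array. The count that rose was 1 without G-CSF 4, G-CSF 5 or PBS 2 and 0 without any other single array.

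**Figure D3:**
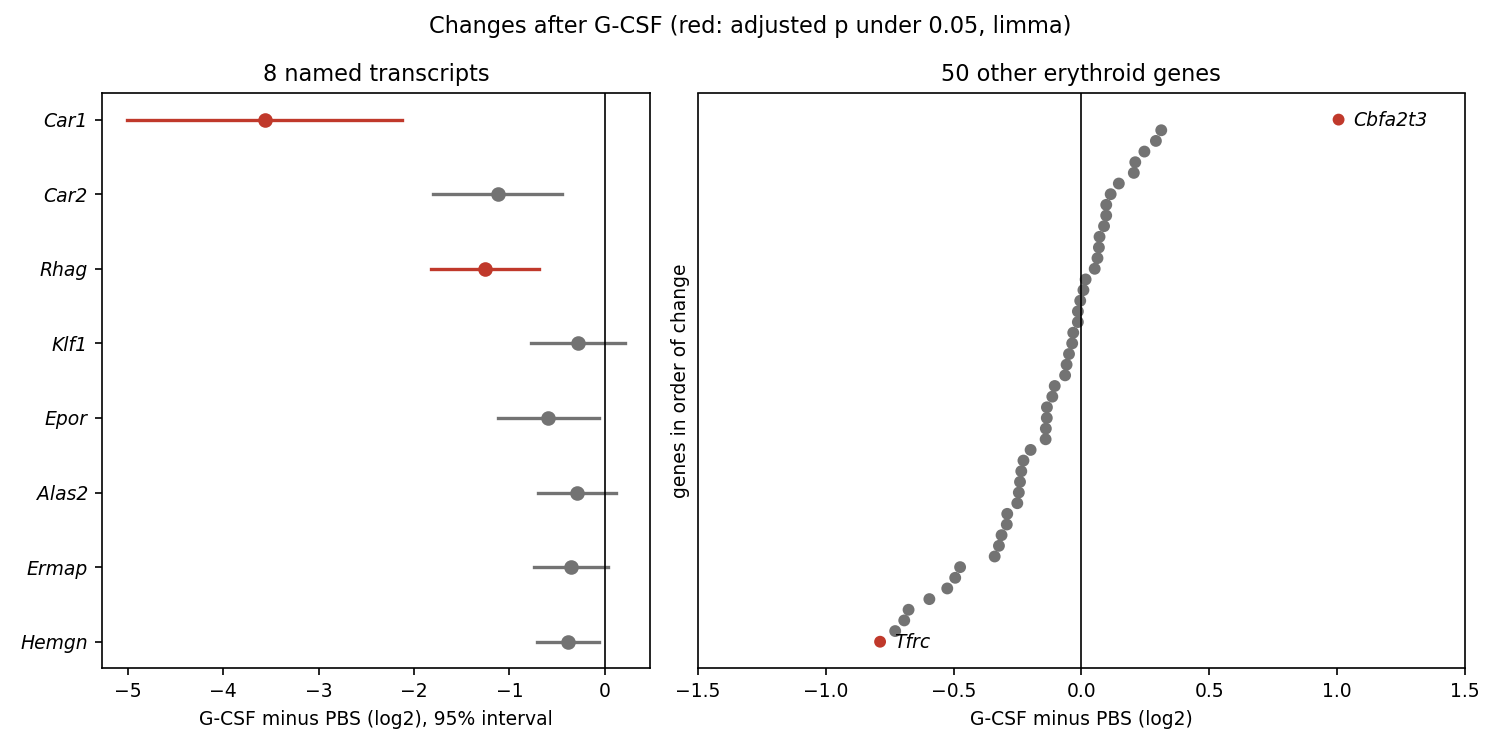
Log2 change (G-CSF minus PBS, horizontal axes) of the 8 transcripts with the 95% interval of limma's fit, at left, and of the 50 other erythroid genes in order of change, at right, with those past an adjusted p of 0.05 in red. Car1 lies at -3.57 and Rhag at -1.25, the intervals of Klf1, Alas2 and Ermap include 0, and the other erythroid genes run from -0.79 (Tfrc) to 1.01 (Cbfa2t3).

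By role, the 17 membrane and blood group genes had a median change of -0.29, and 0 fell or rose (4 were lower at an unadjusted p under 0.05). Slc4a1, the anion exchanger of the red-cell membrane, had 4.38, 4.94, 5.06, 5.31 and 5.31 in G-CSF arrays, against 5.83, 5.65, 5.40 and 5.82 in PBS arrays. Its groups did not overlap, and its change was -0.68 (adjusted p = 0.163). Cldn13 changed by -0.73 (adjusted p = 0.169). Over the 13 haem and iron genes the median was -0.06, with Tfrc fallen and Fech, the last enzyme of haem synthesis, at -0.47 (adjusted p = 0.619). Over 11 transcription factors it was 0.05, with Cbfa2t3 risen and Lyl1 at 0.29 (adjusted p = 0.636).

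The 6 cytosolic and maturation genes had a median of -0.01 and 0 calls, and 0 had an unadjusted p under 0.05, with Trim10 at -0.20 (adjusted p = 0.916) and Bpgm, which makes 2,3-bisphosphoglycerate, at 0.06 (adjusted p = 0.989). Of the globin genes 3 had a probe set of their own. Their median was -0.04, 0 had an unadjusted p under 0.05, and the embryonic genes gave -0.34 for Hba-x (adjusted p = 0.581) and 0.25 for Hbb-bh1 (adjusted p = 0.871).

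Downstream of Epor, 12 of 13 listed genes of erythropoietin signalling were measured, and 0 fell and 1 rose, with a median of 0.18 (2 were lower and 4 higher at an unadjusted p under 0.05). Jak2, the kinase bound to the erythropoietin receptor and to many other cytokine receptors, rose by 1.22 (SE 0.16, adjusted p = 0.00162). It averaged 8.53 ± 0.18 in G-CSF arrays and 7.31 ± 0.23 in PBS arrays, opposite in sign to Epor. Stat5b, a transcription factor that Jak2 activates, changed by -0.55 (adjusted p = 0.222).

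Markers of other marrow cells moved as well, and their part in the erythroid differences was not tested. Among B cell precursor genes 3 of 11 fell (Cd79a by 1.08, Ms4a1 by 0.69 and Dntt by 0.70, with adjusted p values of 0.0227, 0.0354 and 0.0462), and the list mean was 4.08 to 4.48 in G-CSF arrays and 4.69 to 4.94 in PBS arrays. Among neutrophil genes 2 of 16 rose (Mmp9 by 1.64 and Csf3r by 0.94, with adjusted p values of 0.0257 and 0.0262), and the list mean was 8.44 to 9.29 in G-CSF arrays and 7.54 to 9.02 in PBS arrays. The neutrophil mean was highest in PBS 2 among PBS arrays, not in PBS 1 or 4.

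None of 13 macrophage genes passed the test (4 were lower at an unadjusted p under 0.05). Their mean was 4.87 to 5.07 in G-CSF arrays and 5.08 to 5.55 in PBS arrays, with C1qb at -0.77 (adjusted p = 0.0538) and Slc40a1, the iron exporter of macrophages that clear red cells, at -1.15 (adjusted p = 0.0690). None of 9 megakaryocyte genes passed, and 0 had an unadjusted p under 0.05 (Ppbp -1.88, adjusted p = 0.714, and Clec1b -0.37, adjusted p = 0.761). Nor did any of 10 mast cell, basophil and eosinophil genes, of which 2 were lower at an unadjusted p under 0.05 (Prss34 -0.93, adjusted p = 0.0691, and Mcpt8 -1.01, adjusted p = 0.222). Of 10 blood progenitor genes 1 rose (Spi1 by 1.16, adjusted p = 0.0312), with Meis1 at 0.42 (adjusted p = 0.579).

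Of 10 endothelial genes 0 passed, with 2 lower and 1 higher at an unadjusted p under 0.05 (Emcn 0.70, adjusted p = 0.0690, and Ramp2 -0.81, adjusted p = 0.104). None of 6 T and NK cell genes passed, and 0 had an unadjusted p under 0.05 (Nkg7 1.01, adjusted p = 0.606, and Cd3d 0.30, adjusted p = 0.809). The same held for 7 osteoclast genes (Ctsk 0.44, adjusted p = 0.759, and Calcr 0.23, adjusted p = 0.816), a cell type that expresses Car2. Of 9 proliferation genes 0 passed, with 2 higher at an unadjusted p under 0.05 (Tyms 1.19, adjusted p = 0.0642, and Mcm5 0.33, adjusted p = 0.471). Genes of the CAR cells themselves fell in 5 of 10 (Il7, Adipoq, Vcam1, Ebf3 and Kitl), with a list mean of 9.83 to 9.85 in G-CSF arrays and 10.42 to 10.68 in PBS arrays.

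**Figure D4:**
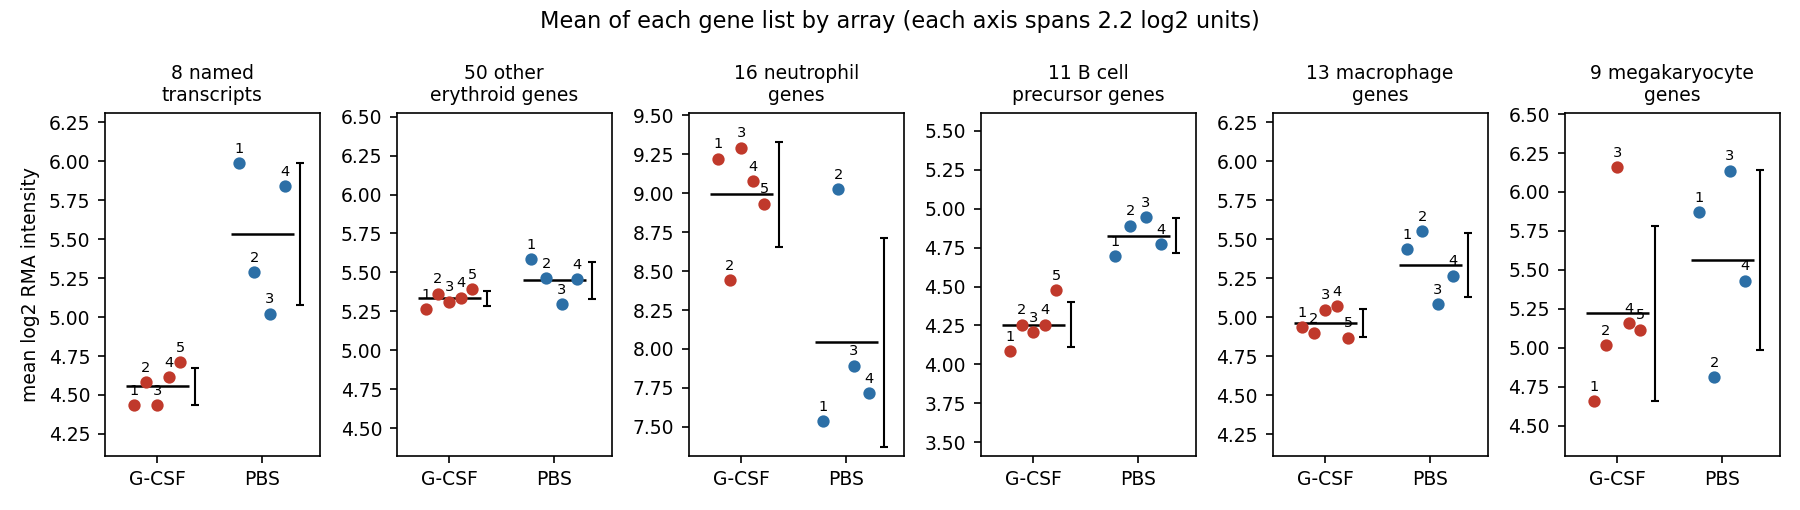
Mean log2 RMA intensity of the 8 erythroid transcripts and of 5 other gene lists in each array (numbered points), G-CSF left of PBS, with lines for group means and bars for ± 1 SD; each panel has its own axis of equal span. The mean of the 8 transcripts is 4.43 to 4.71 in G-CSF arrays and 5.02 to 5.99 in PBS arrays, and that of the other erythroid genes is 5.26 to 5.39 in G-CSF arrays and 5.30 to 5.58 in PBS arrays.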

How the data were processed

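Sorted CAR cells were profiled on 9 arrays, 5 of G-CSF and 4 of PBS, with groups and replicate numbers from the sample titles. Per the submitters' processing notes, the authors ran RMA in Affymetrix Expression Console to make the deposited intensity values. For versions and genome build, nothing is given in the sources used here. These intensities are linear, so log2 was taken before testing. RMA adjusts arrays to each other, so a change in total RNA is not seen, and no detection call exists. The deposited values still differed in spread, with a log2 interquartile range of 2.45 in PBS 3 and 2.99 in PBS 1. With array weights, PBS 3 had the lowest weight, 0.34, and G-CSF 3 the next lowest, 0.91. Precision is limited by the number of arrays.

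Of 35553 probe sets, 21789 carry 1 symbol, 1621 several and 12143 none in the platform annotation. Gene identifiers of 21698 were found in the RefSeq table of GRCm38.p6. limma 3.58.1 in R 4.3.3 (lmFit and eBayes, two-sided) was fitted over the 21789, without covariates. For genes with several probe sets, the one with the highest mean was used.

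The members and lists were chosen with earlier results of these data known. Named genes are the 8 members, in each list the genes past an adjusted p of 0.05 plus the 2 with the smallest p, and the 10 probe sets most like Car1 by each measure. Some genes outside this rule (Cxcl12, Lepr, S100a8, Car13 and the globin probe sets) were added after their values were seen. Alternatives covered the probe sets tested, a filter at a mean log2 of 5, variance moderation, normalization, array weights, replicate and array-set blocks, single arrays left out and thresholds of 0.01 and 0.1. Correlations of deviations between arrays of the same replicate number were 0.28, 0.14, -0.28 and 0.35, so not every pair was over 0.1 and the numbers were not taken to pair the arrays.

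Tested on simulated data with 21789 probe sets, the fit recovered 1 of 50 changes of 0.5 log2 units, 26 of 50 of 1, 48 of 50 of 2 and 49 of 50 of 3, with 5 false calls. The simulated noise was normal and independent between arrays, with the same SD in both groups and no array sets. It therefore does not cover unequal spread such as that of Car1 (SD 0.24 in G-CSF and 1.95 in PBS arrays).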

Additional observations from a re-analysis of the deposited data

Results flagged for a closer look

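Single arrays stood away from the rest of their group in 7 of 96 groups of values examined, and chance alone gives about 1 in 20. Among the 8 erythroid transcripts this held for Ermap, whose value in PBS 1 was 6.42 with the nearest PBS array at 5.68. Among other erythroid genes it held for Trim10, at 4.92 in G-CSF 4 with the nearest at 4.47. Outside the lineage, Ppbp was 8.91 in G-CSF 3 (nearest 4.44), Prss34 was 5.15 in G-CSF 2 (nearest 4.83) and Cd3d was 4.41 in G-CSF 3 (nearest 3.58). In PBS arrays, Nkg7 was 7.35 in PBS 2 (nearest 4.77), and Ctsk was 6.54 in PBS 3 (nearest 7.71).

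The adult globin probe sets lie outside the comparison of single genes because each has several symbols. They changed by -3.61 on average for alpha-globin and by -4.15 for beta-globin, G-CSF minus PBS.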

How the results depend on the processing

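Over 20 alternatives Car1 stayed negative (-4.46 to -2.89) and passed the threshold in 15. It missed it with all probe sets of the table tested (-3.57, adjusted p = 0.0894), in the second array set alone (-2.89, adjusted p = 0.518) and without G-CSF 1, PBS 1 or PBS 4. With 1 array left out at a time it ranged from -4.46 to -3.05. Rhag passed in 5 of 19 alternatives and Car2 in 0 of 20. Klf1 turned to 0.054 in the second array set alone. With the replicate block Car1 was -3.61 (adjusted p = 0.0437) and Rhag had an adjusted p of 0.0769. With G-CSF 4 and 5, the closest pair of arrays, averaged, Car1 was -3.59 (adjusted p = 0.0403). Rhag was then -1.27 and missed the threshold (adjusted p = 0.0642). The count of members that fell was 2. It was 1 with the replicate block, the filter on dim probe sets (which removes Rhag and Klf1), array weights, the first array set alone or G-CSF 4 and 5 averaged, the last an alternative chosen after seeing the data. It was 0 with all probe sets, the second array set alone or a threshold of 0.01, and 0 to 2 with single arrays left out. Other erythroid genes that fell numbered 1, but 0 with all probe sets, further quantile normalization, the replicate block, either array set alone, a threshold of 0.01 or G-CSF 4 and 5 averaged, and 0 to 1 with single arrays left out. Those that rose numbered 1, but 0 with all probe sets, median centring, array weights, the replicate block, either array set alone, a threshold of 0.01 or the mean over probe sets of a gene, and 0 to 1 with single arrays left out. The 4 globin probe sets fell in every setting run except either array set alone (0). The cause of these shifts was not tested. Linear values without a detection call limit what can be said of low probe sets such as that of Rhag.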
